A study of Mus musculus with 8 samples.

Results

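The genes described here mark neurons born in the medial ganglionic eminence, the embryonic bulge of the ventral forebrain that supplies striatal interneurons, and cholinergic neurons. They are Lhx6, Lhx8, Nkx2-1, Maf, Npas1, Nos1, Chat, Slc18a3, Slc5a7 and Cxcr4. The genes were chosen with earlier results of these data known, though the rule itself uses only gene symbols, and every probe set that the array's annotation assigns to one of these symbols was taken. All 10 genes were found, on 19 of the 45037 probe sets, among 18193 genes with a probe set of their own. The arrays held striatal RNA from 4 Ctip2 null mice, 1 Ctip2 heterozygote and 3 wild type mice, all of strain BALB/c at postnatal day 0. RNA came from punches 500 µm wide taken in the middle of the striatum from coronal slices 300 µm thick, and each array carried RNA of 1 animal on an Affymetrix array. Ctip2, listed as Bcl11b, encodes a DNA-binding zinc finger protein made by striatal projection cells, the medium spiny neurons. Which part of the gene was deleted, and whether the deletion was limited to some cells, was not stated by the labels used here. In tissue punches, fewer cells of a type and less RNA per cell cannot be told apart.

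As background, the transcription factor Nkx2-1 sets the identity of the medial eminence, and in the mouse it acts upstream of the LIM homeobox genes Lhx6 and Lhx8. Lhx6 is needed for interneurons that make somatostatin or parvalbumin, whereas Lhx8 is needed for the cholinergic fate. Cholinergic neurons are defined by Chat, which makes acetylcholine, Slc18a3, which loads it into vesicles, and Slc5a7, which takes choline back up. The comparison asks whether these genes differ in striatum that lacks Ctip2, a factor best known from the projection neurons around them.

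Bcl11b, the targeted gene, was lower in null striatum on each of its 4 probe sets. On the brightest it read 11.13, 11.10, 11.47 and 11.03 in null 1 to 4, 12.43 in the heterozygote and 12.45, 12.005 and 12.42 in wild type 1 to 3 on the log2 scale. The null arrays all lay below the wild type arrays, and signal remained in each of them. Of 11 measured markers of medium spiny neurons, the labelled tissue, 0 were dim on all arrays. Array medians ran from 6.21 to 6.35. The SD of all log2 values of an array was 1.96, 2.03, 2.05 and 1.90 in null 1 to 4, 2.06 in the heterozygote and 1.97, 1.84 and 1.87 in wild type 1 to 3, so the spread of values moved in part with genotype.

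Among the 10 genes, Lhx6 alone passed the test, and it was higher in null striatum. The genes of acetylcholine handling, Nkx2-1 and Npas1 showed small differences with overlapping groups. Lhx8, Maf and Cxcr4 had higher null means without passing. At a limma adjusted p under 0.05 over all probe sets, 2 of the 19 probe sets were higher, where 1.87% of all probe sets were, and 0 were lower, where 0.453% of all were (2.32% in either direction). Groups did not overlap on 4 of the 19, all with the null arrays above, where 7.70% of all probe sets lay that way and 8.85% the other way. At an unadjusted p under 0.05, 7 of the 19 were higher and 0 lower, where 10.9% and 8.74% of all probe sets were. These 7 belong to 4 genes, with 2 probe sets of Lhx6 and 3 of Maf, so they are not independent of one another. The median difference was 0.05 over the 19 probe sets and -0.08 over all probe sets. Differences are null minus wild type on the log2 scale throughout.

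**Figure D1:**
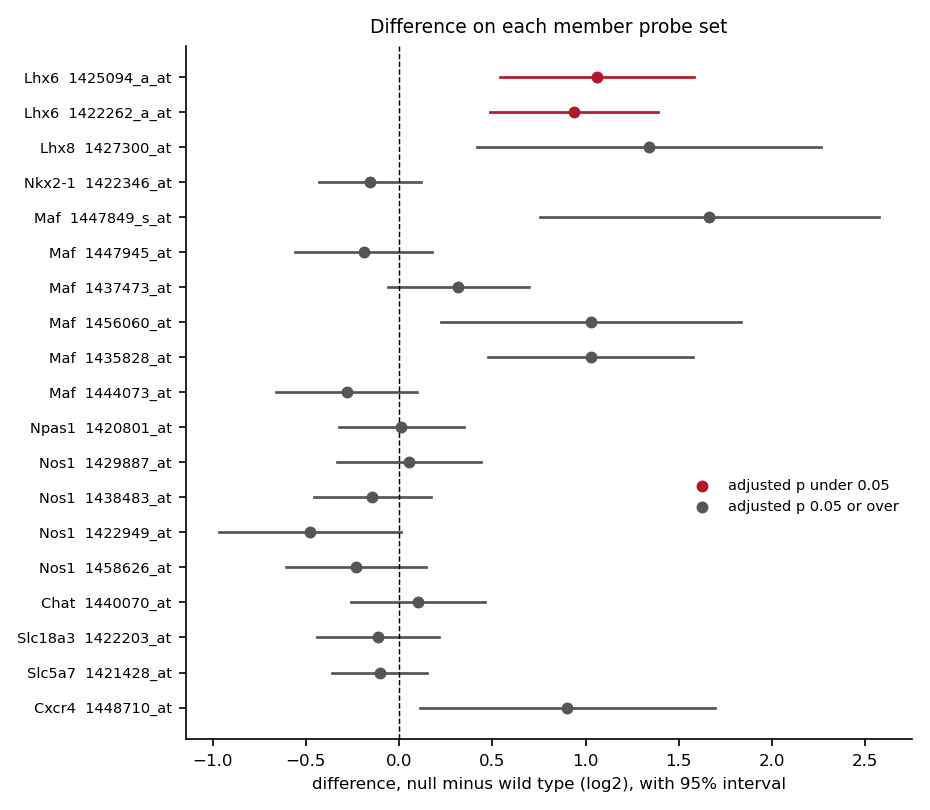
Difference between null and wild type striatum (null minus wild type, log2, horizontal axis) on each of the 19 probe sets, with 95% intervals from limma (4 null and 3 wild type arrays). Only the 2 Lhx6 probe sets, in red, had an adjusted p under 0.05, and the intervals of Lhx8, Cxcr4 and 3 Maf probe sets lay above 0 before adjustment.

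Lhx6, which encodes a LIM homeodomain factor of medial eminence interneurons, was higher in null striatum on both of its probe sets. On the brighter one, 1425094_a_at, it read 9.78, 10.37, 10.10 and 9.28 in null 1 to 4 and 8.74, 9.03 and 8.69 in wild type 1 to 3. Every null array exceeded every wild type array, and the gap between the lowest null and the highest wild type value was 0.25. The means were 9.88 ± 0.47 (SD, n = 4) in null and 8.82 ± 0.18 (SD, n = 3) in wild type striatum, a rise of 2.09-fold, with a difference of 1.06, a 95% interval from 0.54 to 1.58 and an adjusted p of 0.0487. On the other, 1422262_a_at, it read 7.84, 8.15, 7.76 and 7.56 in null 1 to 4 and 6.91, 7.27 and 6.48 in wild type 1 to 3. The groups again did not overlap, and the rise was 1.92-fold (adjusted p = 0.0457). The probe sets varied together, with r = 0.93 across the 8 arrays, which share the same RNA. The heterozygote read 9.83 and 7.89, which is -0.05 and 0.06 from the null means and above every wild type array.

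The Lhx6 call lay near the threshold. With single arrays left out, the adjusted p on 1425094_a_at was 0.103, 0.120 and 0.107 without null 1, 2 or 3, 0.0082 without null 4, and 0.0704, 0.111 and 0.182 without wild type 1, 2 or 3. On 1422262_a_at it was 0.109, 0.130 and 0.0813 without null 1, 2 or 3, and 0.0584 and 0.155 without wild type 1 or 3. That probe set still passed without null 4 (0.0298) and without wild type 2 (0.0441). Counting the heterozygote as a control gave an adjusted p of 0.369 on the brighter and 0.420 on the other probe set, and a covariate for the array SD gave 0.317 and 0.253. With arrays centred on their median it was 0.0826 and 0.0677, and after quantile normalization 0.0584 and 0.0587. The difference stayed above 0 on both probe sets in all of these fits, between 0.69 and 1.26. Lhx6 followed the array SD with r = 0.76 and r = 0.66 across the 8 arrays, and the part of the array spread in its rise was not tested beyond the covariate fit.

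**Figure D2:**
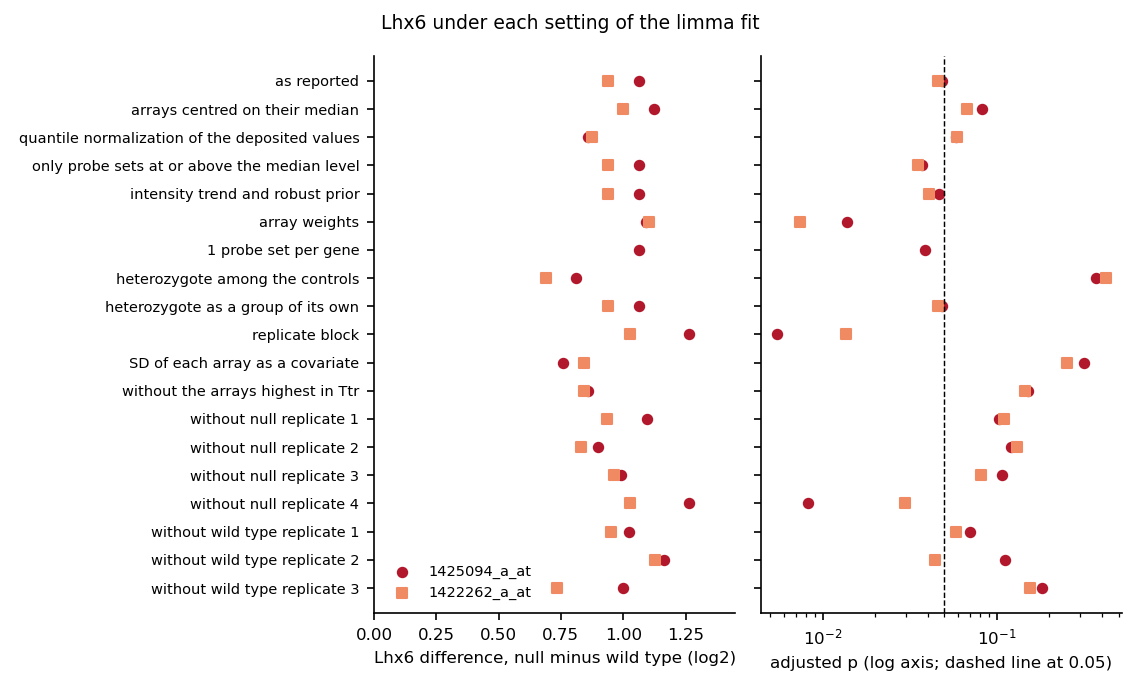
Lhx6 under each setting of the limma fit, with the difference (null minus wild type, log2) on the left and the adjusted p on a log axis on the right, for both probe sets. All differences lie above 0, whereas the adjusted p crosses the dashed line at 0.05 in both directions.

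Sequence upstream of Lhx6 and Lhx8 is shown because both genes encode LIM homeodomain factors with higher null means. From the RefSeq promoter table (GRCm38.p6), 9 of the 10 genes matched with 11 windows, of which the 250 bases before each start site were read; Maf had no entry. Motifs searched on both strands were TCAAG, the core of sites bound by Nkx2-1, TGACCA, the motif known for Bcl11a, the paralogue of Bcl11b, and TAATTA, a homeodomain site; none contains another. The outermost listed start of Lhx6 has a TGACCA and a TCAAG match close together, both on the opposite strand, shown in capitals in the stretch at chr2:36105574-36105603, minus strand, bases -195 to -166 from the start.
Lhx6: ggatTGGTCAcgcatgactcatCTTGAacg
The 250 bases before the start of Lhx8, at chr3:154330561-154330810, minus strand, hold 0 matches to the 3 motifs and are printed whole, without capitals.
Lhx8: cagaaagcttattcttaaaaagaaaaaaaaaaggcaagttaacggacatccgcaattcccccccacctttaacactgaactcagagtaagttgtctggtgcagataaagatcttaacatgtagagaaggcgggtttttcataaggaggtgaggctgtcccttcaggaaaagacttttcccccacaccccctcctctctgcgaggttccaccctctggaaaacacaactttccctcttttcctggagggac
The 11 windows come from 9 genes, and windows of the same gene are not independent of one another. TCAAG occurred in 6 of the 11 windows, those of Lhx6, Nkx2-1, Nos1 and Slc5a7, and in 35.9% of all 32851 windows. TGACCA occurred in 3, of Lhx6, Nos1 and Npas1, and in 11.4% of all, and TAATTA in 0, against 4.84% of all. Such matches describe letters only.

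Lhx8, the LIM homeobox gene of cholinergic and other ventral forebrain neurons, had a higher null mean but did not pass. It read 9.05, 9.09, 9.83 and 8.90 in null 1 to 4 and 7.87, 8.91 and 6.84 in wild type 1 to 3. The wild type animals were spread over 2.07 log2 units, and wild type 2 stood 0.02 above the lowest null array. The means were 9.22 ± 0.42 (SD, n = 4) in null and 7.87 ± 1.04 (SD, n = 3) in wild type striatum, a difference of 1.34 with a 95% interval from 0.42 to 2.27 and an adjusted p of 0.133. Without wild type 2 the difference was 1.86 and the adjusted p 0.0451, whereas without wild type 3 they were 0.83 and 0.356. The adjusted p was 0.665 with the heterozygote as a control, 0.538 with a covariate for the array SD and 0.0312 with array weights. Lhx8 followed the array SD with r = 0.62 across the 8 arrays. The heterozygote read 9.80, next to the highest null array.

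Maf, which encodes the bZIP transcription factor c-Maf of medial eminence interneurons, gave different answers on its 6 probe sets, and 0 of them passed. On the brightest, 1447849_s_at, it read 7.45, 8.42, 8.40 and 7.08 in null 1 to 4 and 6.60, 5.28 and 6.64 in wild type 1 to 3. Null 2 and 3 were highest, wild type 2 was lowest, and the groups did not overlap. The difference was 1.66, or 3.17-fold, with a 95% interval from 0.75 to 2.57 and an adjusted p of 0.0700. On 1435828_at the groups did not overlap either, with null arrays from 4.91 to 5.90 and wild type arrays from 4.13 to 4.69, all below the array medians, and a difference of 1.03 (adjusted p = 0.0664). On 1456060_at, null 1 to 4 read 6.62, 7.59, 7.17 and 5.74 against 5.93, 5.53 and 5.80 in wild type 1 to 3. Null 4 fell among the wild type animals there, and the difference of 1.03 had an adjusted p of 0.176. These 3 probe sets correlated with one another across the 8 arrays at r from 0.86 to 0.92.

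The remaining Maf probe sets differed less. The difference was 0.32 on 1437473_at (adjusted p = 0.314), -0.19 on 1447945_at (adjusted p = 0.495) and -0.28 on 1444073_at (adjusted p = 0.356), with overlapping groups on each. The annotation gives no accession for 1437473_at, 1447945_at and 1456060_at, so which transcript of Maf each one reads is not known here. Null 4 had the lowest null value on the 3 probe sets that differed most. Without it their adjusted p values were 0.0298 on 1447849_s_at, 0.0182 on 1435828_at and 0.0174 on 1456060_at. Leaving out the lowest null value raises the null mean by itself. In the same order the adjusted p was 0.108, 0.110 and 0.252 without null 1 and 0.184, 0.170 and 0.355 without null 2. Without wild type 2 it was 0.224, 0.183 and 0.438. Adjusted for the array SD, the difference on 1447849_s_at was 0.87 (adjusted p = 0.376), and Maf followed the array SD there with r = 0.81.

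**Figure D3:**
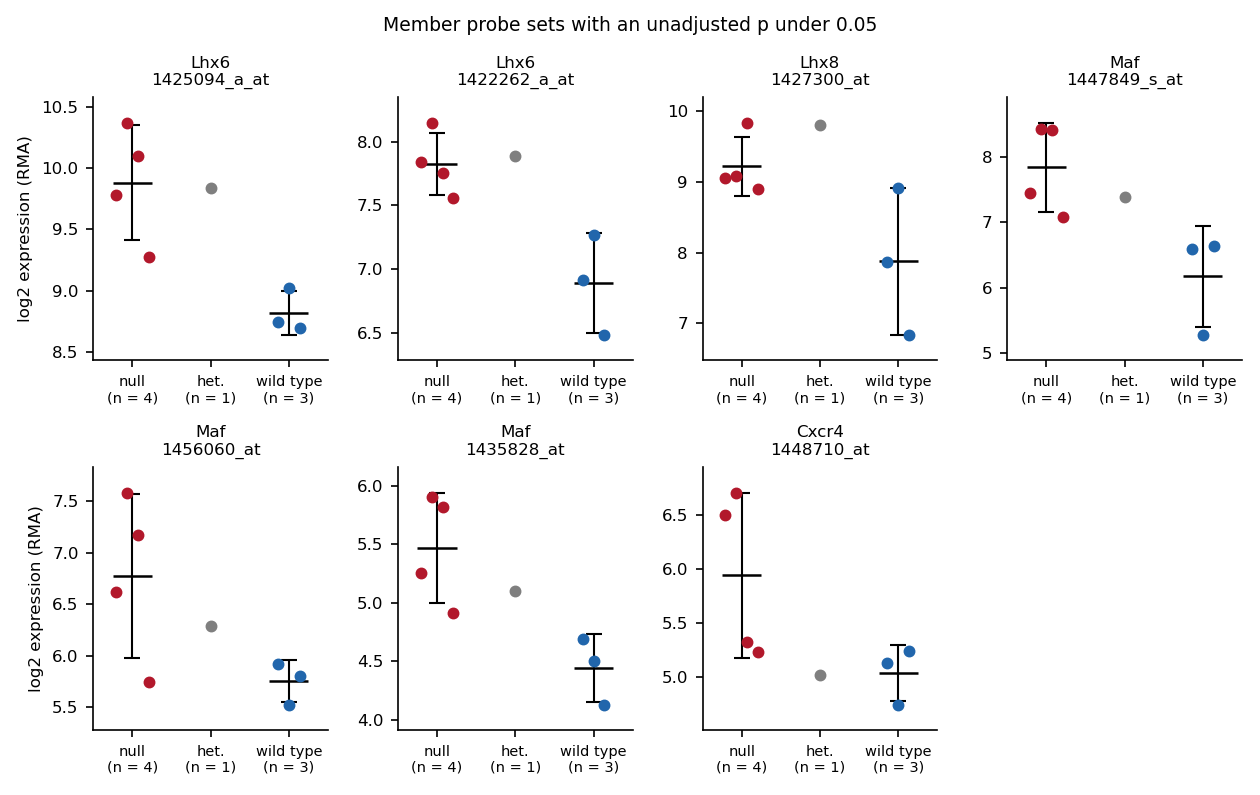
Log2 expression of the 7 probe sets with an unadjusted p under 0.05, 1 point per mouse, with the mean and SD of the null and wild type groups. The null and wild type animals do not overlap on both Lhx6 probe sets and on Maf 1447849_s_at and 1435828_at, and Cxcr4 is high in null 1 and 2 only.

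Nkx2-1, the homeobox gene that defines the medial eminence and that striatal interneurons keep expressing in the mouse, did not pass. It read 6.38, 6.53, 6.31 and 6.30 in null 1 to 4 and 6.41, 6.66 and 6.55 in wild type 1 to 3. The groups overlapped, and the difference of -0.16 had a 95% interval from -0.43 to 0.12 (adjusted p = 0.454). Npas1, a bHLH-PAS repressor of pallidal neurons and some interneurons, read 6.07, 6.31, 6.04 and 6.41 in null 1 to 4 and 5.97, 6.39 and 6.22 in wild type 1 to 3. Its groups covered nearly the same range, with a difference of 0.01 and a 95% interval from -0.32 to 0.35 (adjusted p = 0.967). Both probe sets read close to the array medians, where no detection limit was set.

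Nos1 encodes neuronal nitric oxide synthase, the enzyme of striatal interneurons that also make somatostatin and neuropeptide Y, and 0 of its 4 probe sets passed. On the brightest, 1429887_at, it read 7.79, 7.79, 8.26 and 8.19 in null 1 to 4 and 7.97, 8.19 and 7.71 in wild type 1 to 3. The groups overlapped, with a difference of 0.05 and a 95% interval from -0.33 to 0.44. The other probe sets differed by -0.14 on 1438483_at, -0.48 on 1422949_at and -0.23 on 1458626_at (adjusted p = 0.545, 0.263 and 0.431). On 1422949_at, null 1 to 4 read 6.63, 6.30, 6.15 and 6.98 against 6.67, 7.31 and 7.01 in wild type 1 to 3. That probe set ran opposite to the array SD with r = -0.94, and adjusted for the SD its difference was -0.02. The Nos1 probe sets varied differently over the animals, with r between them from -0.76 to 0.76.

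The 3 genes of acetylcholine handling showed small differences on dim probe sets, below all array medians on every array. Chat, choline acetyltransferase, read 5.995, 5.78, 5.78 and 6.03 in null 1 to 4 and 5.57, 6.15 and 5.67 in wild type 1 to 3. The null animals lay within the wild type range, and the difference of 0.10 had a 95% interval from -0.26 to 0.46 (adjusted p = 0.716). Slc18a3, the vesicular acetylcholine transporter, read 5.26, 5.02, 5.36 and 5.31 in null 1 to 4 and 5.11, 5.58 and 5.36 in wild type 1 to 3. Its difference was -0.11, with a 95% interval from -0.44 to 0.22 (adjusted p = 0.651). Slc18a3 lies inside the span of Chat in the RefSeq annotation. The pair had r = 0.18 across the 8 arrays, with the heterozygote highest on Slc18a3 at 6.18. At this low signal that value does not show whether the 2 genes vary together. Slc5a7, the high-affinity choline transporter, read 4.32, 4.22, 4.23 and 4.39 in null 1 to 4 and 4.33, 4.38 and 4.48 in wild type 1 to 3. The difference was -0.10, with a 95% interval from -0.36 to 0.15 (adjusted p = 0.587). At this low signal a change in a small cell population may not be detectable.

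**Figure D4:**
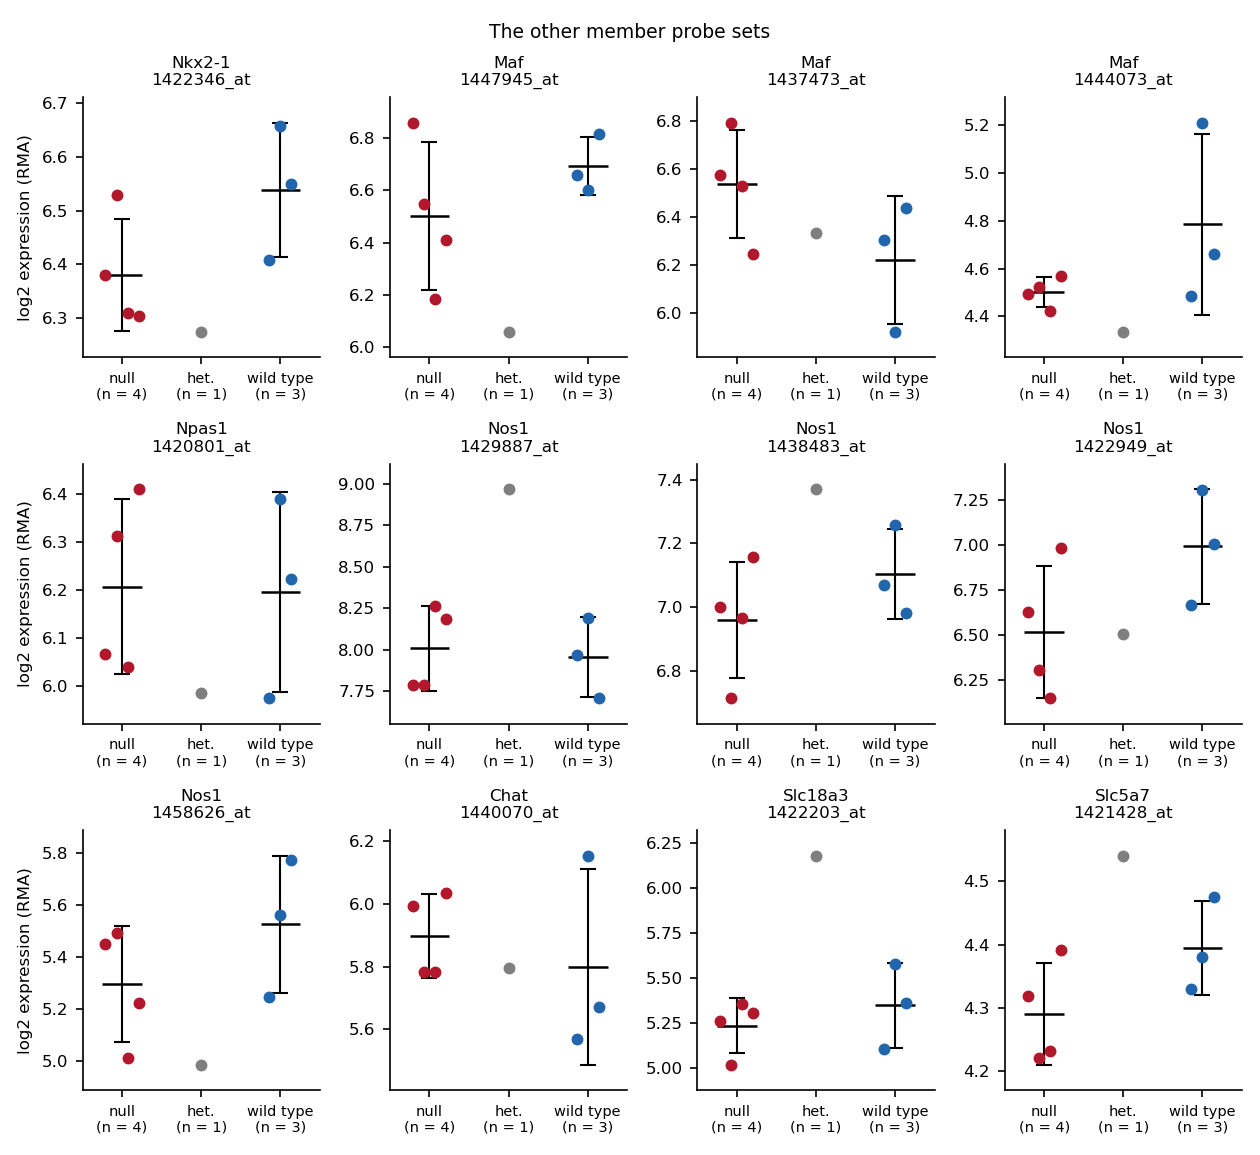
Log2 expression of the other 12 probe sets, 1 point per mouse, with the mean and SD of the null and wild type groups (vertical axes differ between panels). Null and wild type animals overlap in every panel, and the heterozygote is the highest animal on Nos1 1429887_at and 1438483_at, Slc18a3 and Slc5a7.

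Cxcr4, the receptor for the chemokine Cxcl12 that guides migrating medial eminence interneurons, was high in some null animals only. It read 6.495, 6.70, 5.32 and 5.23 in null 1 to 4, 5.01 in the heterozygote and 5.12, 4.74 and 5.24 in wild type 1 to 3. Null 1 and 2 stood apart from the rest, and null 4 lay 0.01 below wild type 3. The means were 5.94 ± 0.77 (SD, n = 4) in null and 5.03 ± 0.26 (SD, n = 3) in wild type striatum, a difference of 0.90 with a 95% interval from 0.11 to 1.69 and an adjusted p of 0.212. Without null 1 or null 2 the difference was 0.72 or 0.65. Its ligand Cxcl12 and the scavenging receptor Ackr3 differed by -0.28 (adjusted p = 0.336) and -0.32 (adjusted p = 0.535). Microglia and endothelial cells express Cxcr4 too. The mean log2 level of 7 microglial markers ran from 7.05 to 7.36 in null and from 6.79 to 6.85 in wild type arrays, with 0 of them past the threshold. Of these markers 5 were higher in every null than in every wild type array, where 8.59% of all genes lay that way. That of 8 endothelial and mural markers ran from 7.04 to 7.55 in null and from 6.92 to 7.12 in wild type arrays. Their part in the Cxcr4 values was not tested.

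Of 14 measured genes on a list of other medial eminence interneuron genes, 0 passed in either direction, where 2.38% of all genes were called higher and 0.676% lower by the same rule. On 3 of the 14, Gad2, Sox6 and Kcnc2, every null array lay above every wild type array, where 8.59% of all genes did, and on 1, Npy, below, where 9.62% did. Gad2, a GABA-synthesising enzyme gene, had the largest difference of the list at 0.73 (adjusted p = 0.0632), with null arrays from 10.16 to 10.46 and wild type arrays from 9.27 to 9.98. Which cells of the punch carried the Gad2 signal was not tested. Kcnc2 was dim, below all array medians on every array, with null arrays from 4.25 to 4.72 and wild type arrays from 3.57 to 4.07. Chosen after their values were seen, Sox6, a transcription factor that acts after Lhx6 in the mouse, differed by 0.61 (adjusted p = 0.0838), Kcnc2, a potassium channel gene, by 0.62 (adjusted p = 0.0918), and the neuropeptide genes Sst and Npy by -0.29 (adjusted p = 0.448) and -0.65 (adjusted p = 0.131). Of 8 measured genes on a list of other cholinergic neuron genes 0 passed. Isl1, a LIM homeobox gene shared by cholinergic and striatonigral neurons, differed most, by 0.69 (adjusted p = 0.183).

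Of 16 cues and receptors that steer medial eminence interneurons, 3 rose and 0 fell, where 2.38% of all genes were called higher and 0.676% lower. The difference was positive on 7 of the 16. Nrp1, a semaphorin receptor gene, rose 4.19-fold, with null arrays from 7.44 to 8.68 and wild type arrays from 5.71 to 6.31 (adjusted p = 0.0067), with an adjusted p of 0.0552 without wild type 1 and null 2. Efnb3, an ephrin gene, rose 2.72-fold, with null arrays from 10.62 to 10.91 and wild type arrays from 9.10 to 9.53 (adjusted p = 0.0018). Nrg3, a ligand gene for ErbB4, rose 1.63-fold (adjusted p = 0.0436). The Nrg3 call was lost without null 1, 2 or 3 (0.0897, 0.106 and 0.0731), without wild type 2 or 3 (0.163 and 0.122), with the heterozygote as a control (0.363), with the SD covariate (0.225), after median centring (0.0629) and without wild type 1 and null 2 together (0.103). Among 10 genes listed for interneurons of the caudal eminence, another source of interneurons, 2 rose and 1 fell, against the same 2.38% and 0.676%. Which cells carried these signals was not tested. Scgn, a calcium-binding protein gene, rose 3.15-fold and Calb2, calretinin, 2.86-fold, while Reln, a secreted glycoprotein gene, fell 2.97-fold (adjusted p = 0.0135, 0.0153 and 0.0094). The Scgn call was lost without wild type 2 or 3 (0.0577 and 0.0695), and the Calb2 call without null 2 (0.0537) or wild type 2 (0.0719), with the heterozygote as a control (0.0582) and without wild type 1 and null 2 together (0.0905). With the SD covariate the adjusted p was 0.123 for Scgn, 0.129 for Calb2 and 0.0625 for Reln. The median difference over the genes measured was 0.08 for the 10 genes of the report, -0.07 for the other medial eminence genes, -0.19 for the other cholinergic genes, -0.06 for the migration cues, 0.32 for the caudal eminence genes and -0.08 over all genes.

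**Figure D5:**
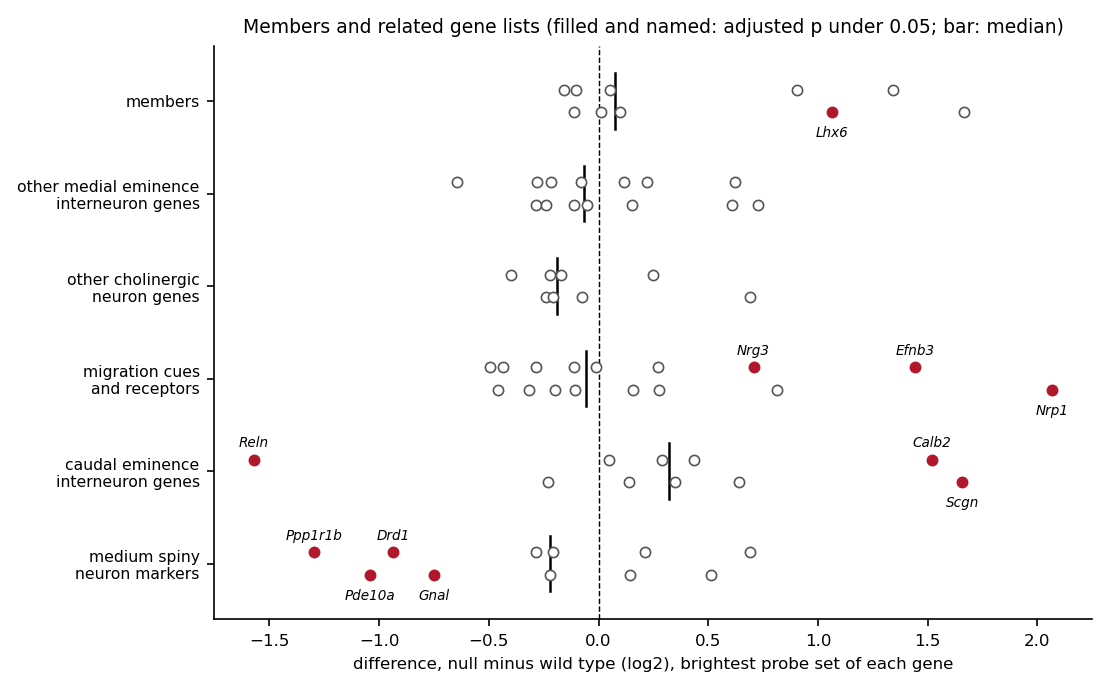
Difference between null and wild type striatum (null minus wild type, log2) for the brightest probe set of each gene, by gene list, with called genes filled and named and the median as a bar. Lhx6 is the single called gene among the 10, and 0 genes are called on the lists of other medial eminence and other cholinergic genes.

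Across the 8 arrays, Lhx6 varied most closely with Maf and Lhx8 among these genes, with r = 0.82 and r = 0.79 on the brightest probe sets. Nos1 and Slc18a3 varied together with r = 0.87, and Slc18a3 and Slc5a7 with r = 0.76, in both cases with the heterozygote as the highest array. Over all genes, the 3 most like Lhx6 were Glrx, a glutaredoxin gene (r = 0.98), Nabp1, which encodes a single-stranded DNA-binding protein (r = 0.98), and Hibch, an enzyme gene of valine breakdown (r = 0.98). Of these, Hibch had an adjusted p of 0.0238, Nabp1 0.0704 and Glrx 0.0987. These correlations rest on 8 points that share genotype and array spread, and they are given as a description.

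Markers of other cells that the punch could hold were measured on the same arrays. The mean of 7 cortical projection neuron markers ran from 5.19 to 5.36 in null and from 5.43 to 5.47 in wild type arrays, and that of 7 choroid plexus markers from 5.52 to 6.98 in null and from 6.04 to 6.82 in wild type arrays. Of both lists 0 genes passed. The largest differences were -0.33 for Eomes among the cortical markers (adjusted p = 0.278), -1.39 for Ttr among those of choroid plexus (adjusted p = 0.558), 0.58 for Rgs5 among the endothelial and mural ones (adjusted p = 0.139) and 0.67 for Csf1r among the microglial ones (adjusted p = 0.135). Of 3 measured red blood cell markers 0 passed, and Alas2 differed most, by 0.17 (adjusted p = 0.572). Of 11 medium spiny neuron markers 4 fell and 0 rose, namely Ppp1r1b, Pde10a, Drd1 and Gnal, by 2.46-fold, 2.06-fold, 1.91-fold and 1.68-fold. Of these, Pde10a kept its call without any single array, whereas Ppp1r1b, Drd1 and Gnal lost it without wild type 2 (adjusted p = 0.0983, 0.145 and 0.0751), without null 2 (0.0791, 0.134 and 0.0693) and with the SD covariate (0.112, 0.1999 and 0.0923). Drd1 also lost it without null 1 (0.0813), null 3 (0.0950) or wild type 1 (0.0573), Ppp1r1b without null 1 (0.0585) and Gnal without wild type 3 (0.0572). Without wild type 1 and null 2 together the adjusted p was 0.122 for Ppp1r1b, 0.151 for Drd1 and 0.102 for Gnal. After median centring it was 0.0575 for Ppp1r1b and 0.0839 for Drd1, and with the heterozygote as a control 0.0930 for Drd1. Of 7 ventricular progenitor markers Sox2 alone rose, 1.61-fold (adjusted p = 0.0459, between 0.0966 and 0.175 without null 1, 2 or 3 or wild type 2 or 3, and 0.174 with the heterozygote as a control), and of 7 septal and preoptic markers Six3 alone rose, 2.58-fold (adjusted p = 0.0016). Without wild type 1 and null 2, the arrays with the most choroid plexus signal, Lhx6 differed by 0.86 and 0.84 on its 2 probe sets (adjusted p = 0.1502 and 0.145). The part of these cells in the Lhx6 values was not tested further.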

How the data were processed

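The authors deposited 1 log2 value for each probe set and array, made with the Bioconductor implementation of RMA, per the labels' design text and the submitters' processing notes. RMA corrects background, normalizes across arrays by quantiles and summarises probes by median polish. Neither a version nor a filter was stated. The array-wide spread still differed afterwards, which can move many probe sets together. The number of arrays limits precision.

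Values were used as deposited. Probe sets were named from the platform annotation: 34945 of 45037 carry 1 symbol, 932 several and 9160 none. Null and wild type arrays were compared with limma 3.58.1 in R 4.3.3 (lmFit and eBayes, 7 arrays, no covariate), with Benjamini-Hochberg adjustment over all probe sets and a threshold of 0.05. The fit was tested on simulated data. For gene lists, a gene was its probe set of highest mean. Listed genes without such a probe set were not analysed here. From each related list the called genes were named, up to 4, or the largest difference where none passed. The members and lists were chosen with earlier results of these data known. Same-numbered null and wild type arrays did not deviate together (correlations of -0.25, -0.31 and -0.17), and no label pairs them. Figures used matplotlib 3.10.9.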

Additional observations from a re-analysis of the deposited data

Results flagged for a closer look

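The heterozygote array, which takes no part in the comparison of null with wild type striatum, was higher than all 7 other arrays on 4 of the 19 probe sets, and lower than all on 4. Over all probe sets it was higher on 11.3% and lower on 20.1%. Nos1 read 8.97 in the heterozygote on 1429887_at, where the highest other array read 8.26, and 7.37 on 1438483_at, where the highest other read 7.26. Slc18a3 read 6.18, where the highest other array read 5.58, and Slc5a7 read 4.54, where the highest other read 4.48. Chat, at 5.80 in the heterozygote, lay within the range of the others. This is 1 animal, so these values have no replicate check. On 0 of the 19 probe sets did a single null array stand apart from the other 3 by Dixon's criterion.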

How the results depend on the processing

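Values were recomputed under 21 alternatives. Of the values for single probe sets, 289 kept direction and side of the threshold, 18 gained a call, 21 lost one and 16 changed sign. The 289 include the heterozygote as a group of its own, which repeated the reported values exactly and could not change them. SAM, the intensity trend, the filter on dim probe sets and 1 probe set per gene reuse the reported difference, so direction could not change there. As reported, 2 probe sets of 1 gene were higher, among 840 higher and 204 lower probe sets in all, and 0 of the 19 were lower in any alternative fitted. Median centring gave 0 probe sets of 0 genes, with 548 higher and 124 lower in all. Quantile normalization gave 0 and 0, with 328 lower. The filter on dim probe sets gave 2 genes, and the intensity trend with a robust prior gave 4 probe sets of 2 genes. Array weights gave 6 probe sets of 4 genes (2686 higher and 965 lower in all), and SAM d beyond 2 gave 6 of 3 (4630 and 5717). An adjusted p under 0.01 left 0 and 0 (190 and 52), and one under 0.10 gave 4 of 2 (1690 and 449). Taking 1 probe set per gene gave 1, with 521 higher in all. The heterozygote as a control gave 0 and 0 (110 and 96), the SD covariate 0 and 0 (189 and 93), and leaving out wild type 1 and null 2 gave 0 and 0 (412 and 62). Leaving out 1 array at a time gave 0 to 5 probe sets of 0 to 2 genes, with 210 to 1733 higher and 76 to 443 lower in all. The replicate block, in which null 4 has no partner and so adds nothing to the difference, gave 5 probe sets of 2 genes and 1696 higher in all; same-numbered arrays did not deviate together, so they share only a number.

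Signs changed only on 4 probe sets whose reported difference was small. Nos1 1429887_at gave -0.089 after quantile normalization, -0.0092 with array weights, -0.20 with the heterozygote as a control, -0.0080 with the replicate block, and from -0.072 to 0.17 without single arrays. Npas1 gave -0.069 with array weights, -0.056 with the replicate block, -0.13 without wild type 1 and null 2, and from -0.0995 to 0.11 without single arrays. Slc18a3 gave 0.036 with the SD covariate and from -0.23 to 0.00083 without single arrays, above 0 without wild type 2 only, and Chat from -0.015, without wild type 1, to 0.28. The cause of these changes was not tested. Dim probe sets, which include those of Chat, Slc18a3 and Slc5a7, limit what could be detected.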
